A study of Mus musculus with 69 samples.

Results

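The nuclear genes for the subunits of oxidative phosphorylation were described across 2 classes of cortical neuron, 2 genotypes and 2 cortical areas of the mouse. They were taken by symbol: the Ndufa, Ndufb, Ndufc, Ndufs and Ndufv families with Ndufab1, Sdha to Sdhd, the Uqcr family, Cycs, the Cox4 to Cox8 families and the Atp5 family. The rule found 86 of the 17634 genes in the count table. Of these, 40 belong to complex I, 4 to complex II, 8 to complex III, 16 to complex IV and 17 to complex V, and 1 (Cycs) encodes cytochrome c. The symbols also admit Ndufb1-ps, annotated as a long non-coding RNA, Ndufb4c, a processed pseudogene that may share reads with Ndufb4, and Atp5s, which is not a classical subunit. Ndufa4 was kept with complex I by its symbol although its protein is now placed with complex IV.

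Oxidative phosphorylation makes most of a neuron's ATP. Complexes I and II pass electrons from NADH and succinate to ubiquinone, complex III passes them to cytochrome c, and complex IV (cytochrome c oxidase) passes them to oxygen, while complex V (ATP synthase) uses the resulting proton gradient to make ATP. Parvalbumin (PV) interneurons fire fast and are known for dense mitochondria and high cytochrome c oxidase staining.

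The data are 69 RiboTag RNA-seq libraries from 37 mice aged 70 to 100 days. RiboTag mice carry an HA-tagged ribosomal protein, Rpl22, switched on by Cre, so that an antibody to HA pulls down the ribosome-bound RNA of the Cre-expressing cells. Every mouse carried Rpl22HA/HA with either PV-Cre, for PV interneurons, or Camk2a-Cre, for forebrain excitatory neurons, and was either an Fmr1 KO or wild type (WT). Fmr1 encodes FMRP, an RNA-binding protein that is lost in fragile X syndrome. There were 10 libraries each for PV KO and PV WT in primary visual cortex (V1) and for PV KO and PV WT in primary somatosensory cortex (S1). Camk2a KO had 6 libraries in V1 and 7 in S1, and Camk2a WT had 8 in V1 and 8 in S1. Both areas came from the same animal in 32 mice. The tag is expressed in every cell in which the Cre line was active at any age, and no library of RNA from before the pull-down was used here.

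Library totals ran from 27.64 to 49.11 M estimated counts. With both areas of a mouse summed, Fmr1 fell by 2.10 on the log2 scale in PV KO mice and fell by 3.24 in Camk2a KO mice (edgeR adjusted p = 1.23e-15 and 1.7e-12). The summed level of 10 PV interneuron markers was 8875 to 12250 CPM (counts per 1 M counts, with TMM-scaled library sizes) in PV libraries and 254.3 to 1851 CPM in Camk2a libraries, and the sum of 10 excitatory markers was 1240 to 2400 CPM in PV and 13000 to 16880 CPM in Camk2a libraries. In the Camk2a line, KO animal C3 and WT animals C18 and C19 had the most PV marker RNA of their groups (731.4 to 1851 CPM), and results that rest on them are given with and without them. In the PV line, KO animals P9 and P24 and WT animal P22 were left out as an alternative, because earlier results placed their V1 libraries on the S1 side. In bulk samples, fewer cells of a type and less RNA per cell cannot be told apart.

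The stretches that lie upstream of 3 of these genes are shown because they contrast widely expressed subunit genes with a form of cytochrome c oxidase best known from muscle. RefSeq (GRCm38.p6) promoter windows of 300 bases, 250 before and 50 after the start, were at hand for 67 of the 86 genes (72 windows). A motif of NRF1, a transcription factor known for respiratory chain genes, spelled GCGC, any base (N), then TGCGC, and searched on both strands like the others, was in 25.0% of the 72 windows and in 4.6% of all 32851 windows. The core of the ETS family, to which GABPA belongs, spelled CCGGAAG, was in 22.2% and 8.9%, and the core of YY1, spelled AAGATGG, was in 13.9% and 6.3%. The matches in the stretches printed here did not overlap. Below are the 200 bases before the start of Sdha (chr13:74350241-74350440, minus strand), Cox6a1 (chr5:115348959-115349158, minus strand) and Cox8b (chr7:140900447-140900646, minus strand), read 5′ to 3′ along the gene, with NRF1 and ETS matches on either strand in capitals. A match is a string of letters and not a bound site.
Sdha: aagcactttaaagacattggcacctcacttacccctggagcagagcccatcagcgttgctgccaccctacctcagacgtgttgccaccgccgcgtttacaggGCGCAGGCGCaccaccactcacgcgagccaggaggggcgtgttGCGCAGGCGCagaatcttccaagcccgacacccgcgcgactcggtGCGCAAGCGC
Cox6a1: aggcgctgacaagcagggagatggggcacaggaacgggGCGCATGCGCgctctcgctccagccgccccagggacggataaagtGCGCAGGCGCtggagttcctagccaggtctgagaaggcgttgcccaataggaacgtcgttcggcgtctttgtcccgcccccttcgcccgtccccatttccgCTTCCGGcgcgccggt
Cox8b: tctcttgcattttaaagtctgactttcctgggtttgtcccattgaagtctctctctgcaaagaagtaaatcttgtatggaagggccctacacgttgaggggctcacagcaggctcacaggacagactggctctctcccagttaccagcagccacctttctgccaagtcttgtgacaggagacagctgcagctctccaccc
Sdha held 3 NRF1 matches, Cox6a1 held 2 NRF1 matches and 1 ETS match, and the Cox8b stretch held none.

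PV libraries held more ribosome-bound subunit RNA than Camk2a libraries. Summed over the 86 genes, PV KO libraries had 12830 to 16710 CPM in V1 (median 14370) and 14220 to 18700 CPM in S1 (median 16000). PV WT libraries had 12260 to 17090 CPM in V1 (median 13620) and 13700 to 18980 CPM in S1 (median 16830). Camk2a KO libraries had 8954 to 11880 CPM in V1 (median 9585) and 7858 to 11080 CPM in S1 (median 9875), and Camk2a WT libraries had 9313 to 10880 CPM in V1 (median 10260) and 9301 to 11660 CPM in S1 (median 10610). Every PV library lay above every Camk2a library. The genes took a mean of 1.66% of the counts in PV WT S1 libraries and 0.998% in Camk2a WT S1 libraries. PV libraries also held more marker RNA of several other cell types. In WT S1, oligodendrocyte markers summed to 552.4 ± 107 CPM in PV and 353.6 ± 58 CPM in Camk2a. Microglial markers summed to 17.15 ± 2.35 and 5.673 ± 1.14 CPM, and precursor markers to 12.24 ± 2.61 and 4.824 ± 1.05 CPM (SD, n = 10 and 8). Astrocyte markers summed lower in PV, at 512.7 ± 37.4 and 946.5 ± 89.1 CPM, but most of them were higher there gene by gene. By the test described below, 5 of 8 astrocyte markers were called higher in PV, beside 39.1% of all genes. The same test called 7 of 8 oligodendrocyte, 6 of 7 microglial and 4 of 4 precursor markers higher. The part of other cells in the class difference was not tested.

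**Figure D1:**
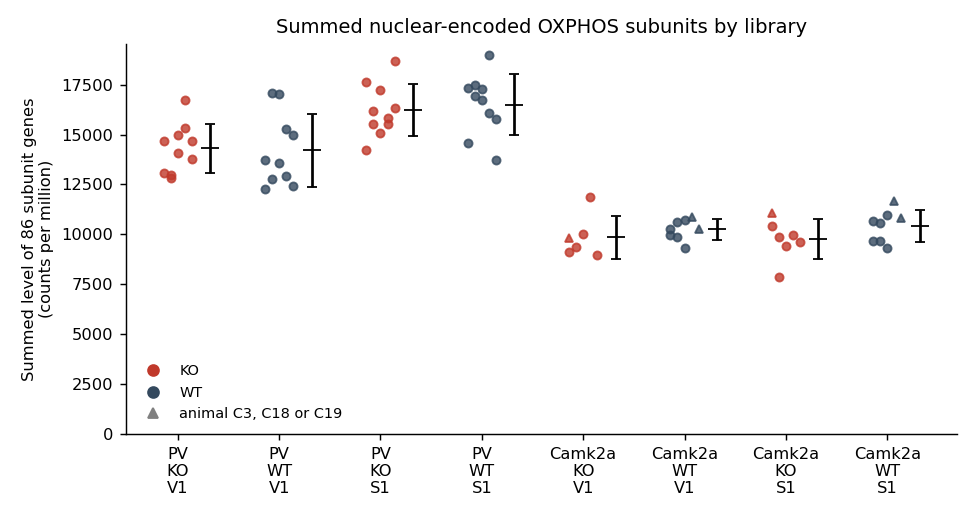
Summed level of the 86 subunit genes in CPM (vertical axis) in each library, by class, genotype and area, with KO in red and WT in dark grey. Black bars are the mean ± SD of each group and triangles are animals C3, C18 and C19. All PV libraries (12260 CPM or more) lie above all Camk2a libraries (11880 CPM or less).

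The class difference was tested gene by gene in 4 comparisons with edgeR's quasi-likelihood test, with Benjamini-Hochberg adjustment over all genes tested and a call at an adjusted p under 0.05. Of 83 subunit genes tested in WT V1, 45 rose and 7 fell in PV relative to Camk2a neurons, where 39.8% of all genes were called higher and 37.5% lower. In WT S1, 63 rose and 2 fell, against a background of 39.1% and 38.1%. In KO V1, 66 rose and 1 fell (background 38.3% and 35.9%), and in KO S1, 72 rose and 0 fell (background 39.8% and 37.9%). Their median log2 fold change was 0.20 in WT V1, 0.44 in WT S1, 0.40 in KO V1 and 0.63 in KO S1, beside 0.03, 0.02, 0.04 and 0.03 over all genes. The same 45 genes were called higher in all 4 comparisons. Cox4i2, Cox6b2 and Ndufa4l2 were too low to be tested; the filter on low counts let a gene through where it was high in 1 group, so these counts are not over all members. Cox8b passed it through its PV libraries, so its higher value in PV carries no weight as a test. It remains among the 83 genes and among the 14 of complex IV in the counts and medians.

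The median was above 0 in each of complexes I to V in each of the 4 comparisons, highest or joint highest in complex V and lowest in complex IV in all but KO S1. In WT S1 the median log2 fold change was 0.44 for complex I (29 rose and 0 fell of 39), 0.46 for complex II (4 and 0 of 4), 0.48 for complex III (5 and 0 of 8), 0.28 for complex IV (11 and 1 of 14) and 0.55 for complex V (13 and 1 of 17). In WT V1 the medians were 0.25 for complex I (22 rose and 2 fell), 0.31 for complex II (3 and 0), 0.29 for complex III (4 and 1), 0.11 for complex IV (6 and 1) and 0.31 for complex V (10 and 3). In KO S1 the 5 medians lay between 0.55 (complex III) and 0.69 (complex V). No test between complexes was made. Members with a principal transcript of 1 to 2 kb had higher medians than shorter members. In WT V1 members of up to 1 kb (49 genes) had a median of 0.05 and those of 1 to 2 kb (25 genes) 0.45. Other genes of the same lengths had -0.07 and -0.02. The 7 members of 2 to 4 kb had 0.72 and the 2 members over 4 kb had 0.36, beside 0.05 and 0.06 in other genes. In KO S1 the gap between members of up to 1 kb and of 1 to 2 kb was smaller. There members had 0.55 and 0.66, beside 0.14 and 0.10 in other genes. The part of transcript length in the order of the complexes was not tested.

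**Figure D2:**
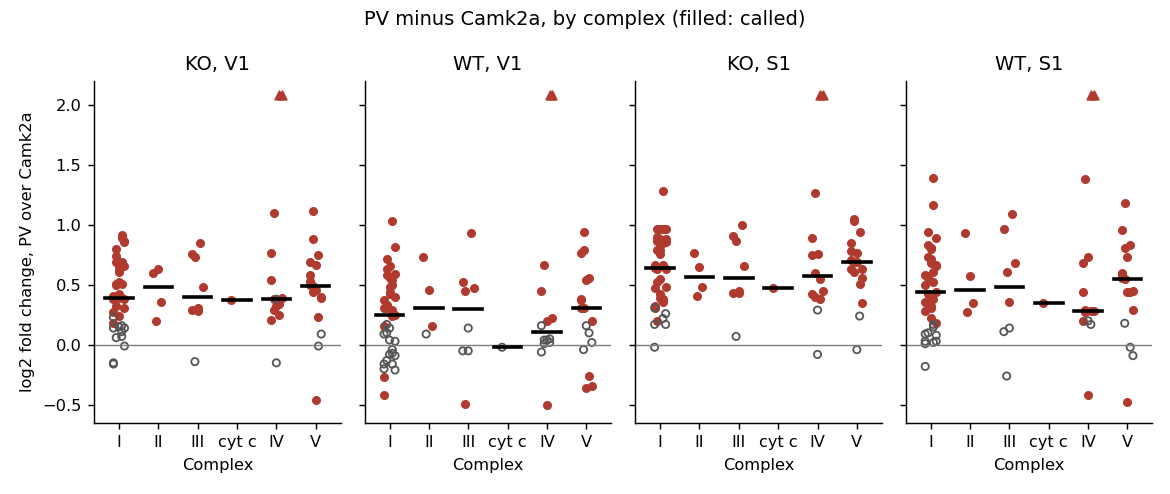
Log2 fold change of PV over Camk2a (vertical axis) for each tested subunit gene, by complex, in KO V1, WT V1, KO S1 and WT S1. Filled points passed the test, open points did not, and black lines are medians. The 2 triangles above complex IV are Cox6a2 and Cox8b, whose values lie beyond the axis. Cox8b passed the filter through its PV libraries, so its point is not read as a test result.

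In complex I, Ndufs1, which holds iron-sulfur clusters of the electron input arm, was at 237.2 to 294.1 CPM in PV WT V1 (median 257) and 118.3 to 141.5 CPM in Camk2a WT V1 (median 129.8), and the groups did not overlap. The log2 fold change was 1.03 ± 0.05 (SE, adjusted p = 2.34e-13). In S1 it was 1.17 ± 0.067. Ndufv1, the subunit that binds FMN and takes electrons from NADH, had 0.58 in WT V1 and 0.73 in WT S1.

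Ndufab1, the mitochondrial acyl carrier protein, was at 60.11 to 120.9 CPM in PV WT V1 and 49.35 to 75.04 CPM in Camk2a WT V1, which overlapped, and at 92.31 to 138.6 CPM in PV WT S1 and 41.19 to 50.69 CPM in Camk2a WT S1, which did not. The log2 fold changes were 0.50 ± 0.14 in V1 and 1.39 ± 0.074 in S1 (adjusted p = 0.00254 and 2.87e-13). The small accessory subunit genes Ndufa7 and Ndufa1 fell in WT V1, with log2 fold changes of -0.42 and -0.27, and had -0.18 and 0.01 in WT S1, which did not pass the test.

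In complex II, the flavoprotein gene Sdha had 592.9 to 670.3 CPM in PV WT V1 (median 628.3) and 334.2 to 413.8 CPM in Camk2a WT V1 (median 391.6). The groups did not overlap, and the log2 fold change was 0.73 ± 0.041 in V1 and 0.93 ± 0.041 in S1. The iron-sulfur gene Sdhb did not pass the test in V1 (119.6 and 111.9 CPM on average in PV and Camk2a, log2 fold change 0.09, adjusted p = 0.0963) and rose in S1 (0.27). Sdhc, a membrane anchor subunit, had 0.46 in V1 and 0.57 in S1.

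In complex III, the core subunit gene Uqcrc1 had 407.3 to 507.5 CPM in PV WT V1 and 220.3 to 253.8 CPM in Camk2a WT V1, with a log2 fold change of 0.93 ± 0.045 in V1 and 1.09 ± 0.051 in S1. Uqcrfs1, the Rieske iron-sulfur protein, had 0.52 in V1 and 0.97 in S1. The small subunit Uqcr11 fell in V1 at -0.49 ± 0.12 (adjusted p = 0.000966), and had -0.26 in S1 (adjusted p = 0.0545). Cycs, which encodes cytochrome c, had 79.6 to 122.8 CPM in PV WT V1 and 80.09 to 107.6 CPM in Camk2a WT V1, and did not pass the test there (log2 fold change -0.02, adjusted p = 0.791), while in S1 it rose by 0.35 (adjusted p = 0.000218).

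Some subunits of cytochrome c oxidase come in isoforms from separate genes. Cox6a2, the form of subunit VIa best known from heart and skeletal muscle, was at 51.76 to 123 CPM in PV WT V1 (median 68.7) and 0.6405 to 10.34 CPM in Camk2a WT V1 (median 0.8576). In S1 it was at 78.53 to 118.5 CPM in PV WT (median 100.8) and 0.5322 to 17.41 CPM in Camk2a WT (median 1.434). In KO libraries it was at 57.91 to 100.9 CPM in PV V1 and 0.324 to 4.513 CPM in Camk2a V1, and at 74.3 to 117.7 CPM in PV S1 and 0.5547 to 10.58 CPM in Camk2a S1. The groups did not overlap in any of the 4 comparisons. The log2 fold change was 4.78 ± 0.63 in WT V1, 4.48 ± 0.66 in WT S1, 6.0 in KO V1 and 5.60 in KO S1 (adjusted p = 3.24e-06, 1.36e-05, 5.06e-08 and 1.73e-07).

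The highest Camk2a values of Cox6a2 were those of C3 (4.513 CPM in V1 and 10.58 CPM in S1), C18 (10.34 and 17.41 CPM) and C19 (7.473 and 14.99 CPM), the libraries with the most PV markers. Without them the Camk2a maximum was 0.7086 CPM in KO V1, 1.077 CPM in WT V1, 0.9109 CPM in KO S1 and 1.657 CPM in WT S1. The log2 fold change was then 7.20 in KO V1, 6.46 in WT V1, 7.05 in KO S1 and 6.32 in WT S1.

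Per kb of the principal transcript, Cox6a2 was 25.0 ± 2.08% of Cox6a1 and Cox6a2 together in PV WT V1 (SD, n = 10) and 27.3 ± 1.06% in PV WT S1 (SD, n = 10). In Camk2a WT it was 1.27 ± 1.66% in V1 and 1.96 ± 2.67% in S1 (SD, n = 8 each). Cox6a1, the widely expressed form, overlapped between the classes, with 147.9 to 270.4 CPM in PV WT V1 and 165.4 to 194.4 CPM in Camk2a WT V1. Its log2 fold change was 0.02 in WT V1 (adjusted p = 0.858). Cox6a1 did not pass the test in WT S1 either (0.17, adjusted p = 0.0676), but rose in KO V1 and KO S1, at 0.25 and 0.38.

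**Figure D3:**
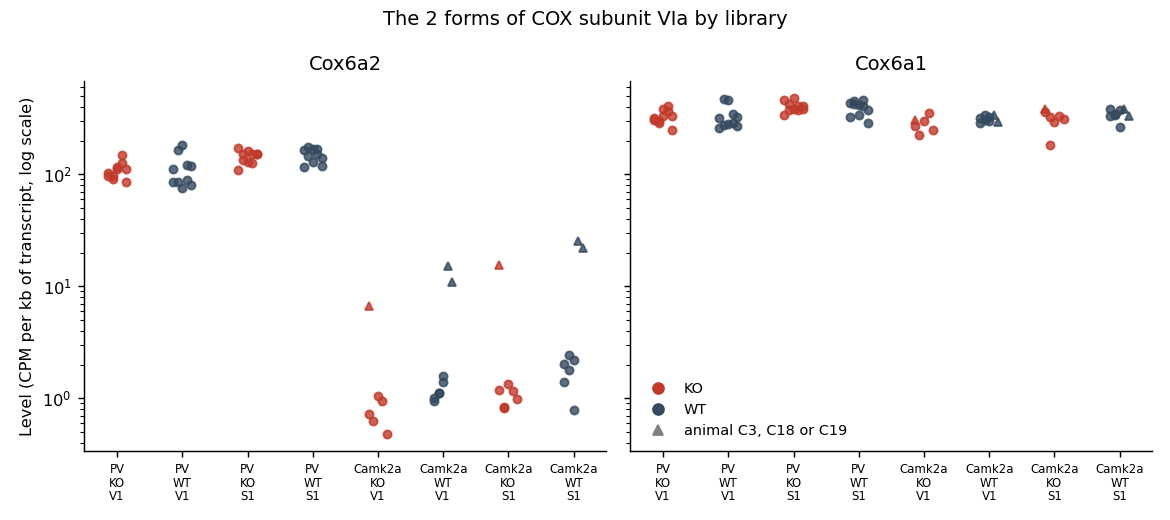
Level of Cox6a2 (left) and Cox6a1 (right) in CPM per kb of transcript, on a log axis, in each library by class, genotype and area. Cox6a1 lies in one band across the groups, whereas Cox6a2 is at 76.12 or more in PV libraries and 25.61 or less in Camk2a libraries, where the triangles (animals C3, C18 and C19) are the highest.

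The other isoforms of complex IV subunits that are rare outside muscle or a few tissues were low here. Cox8b was at 0.1433 to 1.569 CPM in PV WT V1 and 0 to 0.27 CPM in Camk2a WT V1, and at 0.7643 to 1.642 CPM in PV WT S1 and 0 to 0.3286 CPM in Camk2a WT S1. Most Camk2a libraries held almost no counts and the gene passed the filter through PV, so these levels are given as a description with no fold or test. Cox8a, its widely expressed partner, fell in PV WT neurons, with 99.6 to 225.4 CPM in PV and 194.4 to 227 CPM in Camk2a in V1 (log2 fold change -0.50 ± 0.12, adjusted p = 0.000851) and -0.42 in S1, and did not pass the test in KO (-0.15 in V1 and -0.08 in S1). Per kb, Cox8b was 0.639% of Cox8a and Cox8b together in PV WT V1 and 0.0385% in Camk2a WT V1. Cox7a1, a muscle form of subunit VIIa, was at 0.714% of Cox7a1 and Cox7a2 together in PV WT S1 and 0.717% in Camk2a WT S1, and was not called in any of the 4 comparisons. Cox4i2 and Cox6b2 averaged below 0.16 CPM in every group.

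Among the common subunits of complex IV, Cox5a had 151 to 286.4 CPM in PV WT V1 and 102.6 to 144.9 CPM in Camk2a WT V1, a log2 fold change of 0.67 ± 0.11, and 1.38 ± 0.074 in S1. Cox7b had 0.45 in V1 and 0.68 in S1. Cox4i1, the most abundant subunit IV gene, averaged 338 and 338.9 CPM in PV and Camk2a WT V1 and was not called (log2 fold change -0.06, adjusted p = 0.506), and had 0.20 in S1 (adjusted p = 0.017).

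ATP synthase held the most abundant members. Atp5b, the catalytic beta subunit, was at 2021 to 2478 CPM in PV WT V1 (median 2200) and 1067 to 1255 CPM in Camk2a WT V1 (median 1171), which did not overlap. The log2 fold change was 0.94 ± 0.046 in V1 and 1.18 ± 0.054 in S1. Atp5a1, the alpha subunit, had 0.77 and 0.96. The 3 genes for the c-ring subunit differed: Atp5g3 rose by 0.56 and 0.83 in V1 and S1, Atp5g1 rose by 0.31 and 0.55, and the rarer Atp5g2 fell by 0.36 and 0.48 (12.83 CPM in PV and 16.4 CPM in Camk2a on average in V1). Per kb, in WT S1, Atp5g3 was at 551 ± 68.9 in PV and 313 ± 32.6 in Camk2a, far above Atp5g2 at 17.8 ± 5.10 in PV and 25.9 ± 3.82 in Camk2a (CPM per kb, SD, n = 10 PV and 8 Camk2a).

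Lists of genes that work with the subunits differed among themselves. All 18 tested genes of the citrate cycle and pyruvate dehydrogenase rose in each of the 4 comparisons, with Cs, citrate synthase, at 0.60 in WT V1 and 0.79 in WT S1. Cyc1, the cytochrome c1 of complex III that the symbol rule does not reach, rose by 0.78 and 1.15, and the ADP/ATP carrier Slc25a5 by 0.89 and 1.07. Of 16 regulators of mitochondrial biogenesis, 12 rose and 3 fell in both WT V1 and WT S1. Ppargc1a, the coactivator PGC-1alpha, rose by 2.03 and 2.20, Tfam rose by 0.38 and 0.48, Nrf1 fell by 0.24 and 0.32, and Gabpa had -0.21 and -0.17, which did not pass the test. Of 49 assembly factors, 22 rose and 14 fell in WT V1 and 27 rose and 10 fell in WT S1, which is 44.9% and 55.1% higher beside 39.8% and 39.1% of all genes. These lists were chosen with earlier results known.

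The 13 mitochondrially encoded subunit genes differed more, with medians of 2.85 in WT V1 and 2.01 in WT S1 and all 13 called higher in PV. As background, these RNAs are read by mitochondrial ribosomes, which hold no Rpl22. Their sum was 9051 to 52070 CPM in PV WT V1 and 3490 to 5428 CPM in Camk2a WT V1, a far wider spread in PV than that of the nuclear genes.

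The loss of Fmr1 was compared within each class. In PV neurons no subunit gene passed the test. Of 83 tested in V1 and 83 in S1, and of 85 with the areas of an animal summed (9 KO and 10 WT mice with both), 0 were called by edgeR, 0 had an unadjusted p under 0.05, and DESeq2 called 0. The background was 0.191% of genes called in V1, 0.77% in S1 and 1.36% summed. The median log2 fold change was 0.00 summed, and the tested members ranged from -0.34 to 0.10. CPM values with areas summed, here and below, were taken over plain count totals without TMM scaling. The smallest p of those that were lower in KO was that of Ndufb5 (135.4 CPM in KO and 140.9 CPM in WT, log2 fold change -0.08 ± 0.049, adjusted p = 0.579). The smallest of those that were higher was that of Atp5f1 (416.2 CPM in KO and 389.5 CPM in WT, 0.07 ± 0.046, adjusted p = 0.595). Cox6a2 was at 89.6 CPM in PV KO and 90.25 CPM in PV WT (-0.03 ± 0.094).

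In Camk2a neurons most subunit genes had a small negative value in KO, of which 1 passed the test in V1 and none elsewhere. In V1, 72 of 82 were negative with a median of -0.13, and 1 was called by edgeR, beside 1.4% of all genes. In S1, 73 of 82 were negative with a median of -0.15, and 0 were called by edgeR or DESeq2. The edgeR share of all genes there was 4.09%. With areas summed (6 KO and 7 WT mice), 73 of 82 were negative with a median of -0.16 (all genes 0.00). There 0 were called by edgeR, beside 4.11% of all genes. At an unadjusted p under 0.05 (edgeR) stood 24 members in V1, 10 in S1 and 31 summed. The share of all genes at that looser threshold is not given, so these counts cannot be set against the shares called. Without KO animal C4 the summed median was -0.09, with 19 members under an unadjusted p of 0.05. That number was 12 without WT animal C16, 15 without KO animal C7 and 49 without KO animal C6. The lone call was Ndufa1, an X-linked accessory subunit of complex I. Its V1 values were 27.23 to 40.4 CPM in Camk2a KO (median 30.29) and 38.29 to 45.11 CPM in Camk2a WT (median 40.56), which overlapped, and its log2 fold change was -0.36 ± 0.085 (edgeR adjusted p = 0.048). Without C3, C18 and C19 it was -0.35 (adjusted p = 0.185).

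By complex, the summed medians were -0.14 (complex I), -0.10 (II), -0.13 (III), -0.21 (IV) and -0.16 (V), and all 13 tested members of complex IV were negative. Atp5e, the epsilon subunit of ATP synthase, had 30.12 CPM in KO and 39.65 CPM in WT (-0.40 ± 0.11, adjusted p = 0.0612). The catalytic Sdha and the core Ndufs1 had positive values, 0.11 and 0.16 (adjusted p = 0.149 and 0.209). In the summed comparison DESeq2 called 7 of 82 members lower, with 10.4% of all genes called, and edgeR without WT animal C24 called 7 lower, with 8.06% called, so both counts lay near the share of all genes. C24 gave the only Batch 2 library, its S1 sample. Other short genes were lower too: with a principal transcript of up to 1 kb the median was -0.20 in 48 members and -0.12 in 1282 other genes, and with 1 to 2 kb it was -0.08 and -0.05. The part of transcript length in the difference was not tested. Mean marker sums of some other cells were also unequal between KO and WT. Oligodendrocyte markers summed to 273.9 ± 42 CPM in KO and 363.6 ± 56.3 CPM in WT in V1. In S1 they summed to 264.7 ± 44 CPM in KO and 353.6 ± 58 CPM in WT (SD, n = 6 and 8 in V1, 7 and 8 in S1). Of the 8, 0 passed edgeR's test in V1 (1 with an unadjusted p under 0.05) and 1 fell in S1. Markers of other interneurons summed to 842.4 ± 102 CPM in KO and 1042 ± 134 CPM in WT in V1, and none of 7 passed the test (edgeR, 2 with an unadjusted p under 0.05). In S1 they summed to 917.3 ± 48 CPM in KO and 986.1 ± 111 CPM in WT. In PV libraries the group means of this sum were 140 to 170.6 CPM, and what it reflects in Camk2a libraries was not tested. Astrocyte markers went the other way, at 914 ± 138 CPM in KO and 897.9 ± 102 CPM in WT in V1. In S1 they summed to 1069 ± 163 and 946.5 ± 89.1 CPM. The part of these markers in the result was not tested. With a glial marker score in the model the summed median was -0.12. In that fit 8 members had an unadjusted p under 0.05 (edgeR), beside 31 without the score. Cox6a2 had the most negative value, -1.77 ± 1.3 (1.707 CPM in KO and 4.261 CPM in WT, adjusted p = 0.464), and its highest libraries were those of C3, C18 and C19.

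The genotype effect in PV minus that in Camk2a was positive for 76 of 85 members, with a median of 0.16. Of the 85, 0 passed edgeR's test or DESeq2's, and edgeR called 0.832% of all genes. At an unadjusted p under 0.05 stood 13 members, a looser threshold for which no share of all genes is given. Sdha had -0.12 ± 0.053 (adjusted p = 0.339) and Atp5j2 0.39 ± 0.16 (adjusted p = 0.292). Ppargc1a, Tfam, Nrf1, Gabpa, Cs, Idh3a, Cyc1, Slc25a4 and Slc25a5 passed no genotype test.

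**Figure D4:**
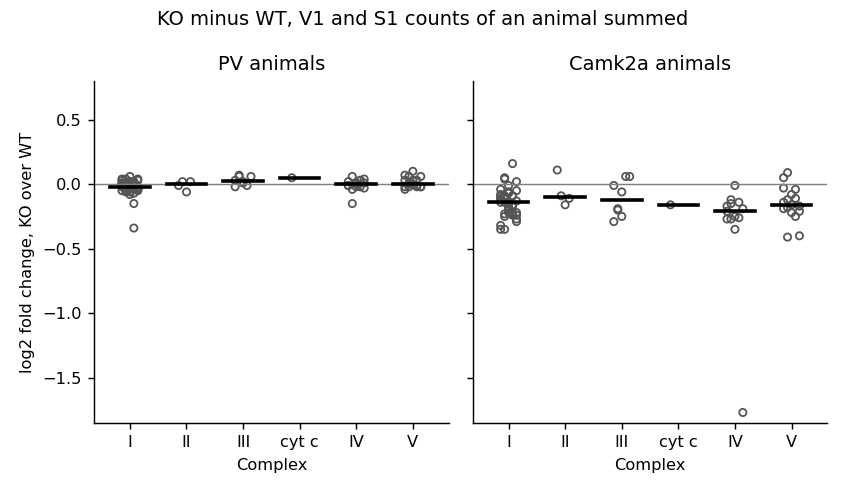
Log2 fold change of KO over WT (vertical axis) for each tested subunit gene, by complex, in PV animals (left) and Camk2a animals (right), with V1 and S1 counts of an animal summed. Open points did not pass the test (0 were called), and black lines are medians. The PV medians of complexes I to V lie between -0.02 and 0.03, and the Camk2a medians lie between -0.21 and -0.10. The lone point near -1.8 is Cox6a2.

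In PV neurons, subunit genes were lower in V1 than in S1 in both genotypes. Of 83 tested in PV WT, 48 fell and 0 rose in V1, against a background of 9.95% lower and 10.7% higher, and 83 of 83 had a negative value (median -0.25). In PV KO, 43 fell and 0 rose (background 4.09% and 3.47%), with 82 of 83 negative (median -0.25). The 2 lists shared 31 genes, 64.6% of the WT list and 72.1% of the KO list. In PV WT the groups overlapped for each member. Cox5a was at 151 to 286.4 CPM in WT V1 (median 197.7) and 225.8 to 321.7 CPM in WT S1 (median 266.4), and its log2 fold change was -0.37 ± 0.089 (edgeR adjusted p = 0.00954). Ndufa1 had 36.1 CPM in V1 and 49.02 CPM in S1 on average in WT (-0.45 ± 0.12), Ndufs4 had -0.30, and Ndufb8 had -0.31. In PV KO, Atp5o had -0.25 ± 0.054, Atp5g2 had -0.45 ± 0.098, Cox7a2 had -0.34 ± 0.080 and Cox6a2 had -0.39 ± 0.090 (73.78 CPM in V1 and 97.74 CPM in S1, adjusted p = 0.0284).

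By complex in PV WT, 24 of 39 members of complex I fell, 1 of 4 of complex II, 3 of 8 of complex III, 7 of 14 of complex IV and 12 of 17 of complex V, as did Cycs, with medians of -0.25, -0.15, -0.25, -0.30 and -0.24 for I to V. Complex II had the smallest shift in both genotypes, at -0.12 in KO. Within animals, the summed level was lower in V1 in 7 of 9 PV KO and 8 of 10 PV WT mice with both areas. The area fits above had no term for the animal and treated both libraries of a mouse as independent. With the animal as a replicate block, 74 members fell in PV WT, where 26.6% of all genes were called. In PV KO 0 were called with the block, nor was any gene of the whole table, and the median stayed at -0.25. There 73 members had an unadjusted p under 0.05 (edgeR), a looser threshold for which no share of all genes is given.

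Markers of other cells moved with the area in PV libraries. The glial marker score, the mean log2(CPM + 1) over the markers of astrocytes, oligodendrocytes, precursors, microglia and vascular cells, centred on the mean of all libraries, was -0.107 to 0.819 in PV WT V1 and 0.021 to 0.327 in PV WT S1, and 0.27 to 0.829 in PV KO V1 and 0.004 to 0.564 in PV KO S1. In PV WT, all 4 precursor markers, 5 of 8 astrocyte, 3 of 7 microglial, 3 of 8 vascular and 1 of 8 oligodendrocyte markers were called higher in V1, as were 6 of 10 excitatory markers. In V1 the subunit genes summed highest in WT animals P21 (17090 CPM) and P22 (17050 CPM) and KO animal P24 (16710 CPM), whose glial scores were 0.228, -0.107 and 0.27. With the glial score in the model, 0 members were called in PV WT (median -0.16, 14 with an unadjusted p under 0.05) and 0 in PV KO (median -0.10, 13). With the log2 ratio of PV to excitatory markers in its place, 0 were called in PV WT (median -0.15, 3 with an unadjusted p under 0.05) and 0 in PV KO (median -0.22, 67). In these 4 fits 0 genes of the whole table were called, as in PV KO with the animal as a block, so the loss of calls is not particular to the subunit genes. No share of all genes is given for the unadjusted p, so those counts of members are not read as particular to them. The part of cell content in the area difference was not tested further. Without P9, P22 and P24, 62 members fell in PV WT (31.6% of all genes called) and 72 in PV KO (21.6% of all genes called), but those animals were set apart by their area pattern itself.

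The mitochondrially encoded genes had the opposite sign in PV: 13 of 13 were positive in WT (median 0.84) and in KO (median 0.34), and none passed the test. With edgeR 13 in WT and 1 in KO had an unadjusted p under 0.05, for which no share of all genes is given. Among other short genes (principal transcript up to 1 kb), V1 was lower by a median of 0.08 in PV WT and 0.09 in PV KO, against 0.27 in members of that length in both.

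**Figure D5:**
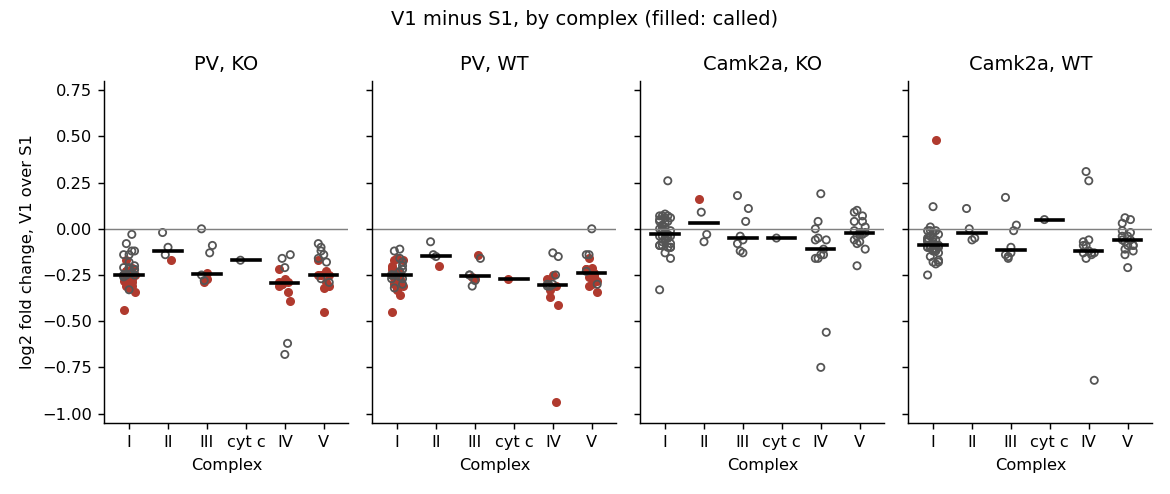
Log2 fold change of V1 over S1 (vertical axis) for each tested subunit gene, by complex, in PV KO, PV WT, Camk2a KO and Camk2a WT libraries. Filled points passed the test, open points did not, and black lines are medians. In PV the points lie below 0 in all but 1 gene of the KO libraries, and in Camk2a 1 point passed the test in each genotype, above 0.

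In Camk2a neurons, 1 member rose in V1 in each genotype and 0 fell in the main fits. Camk2a WT S1 held the only Batch 2 library, that of C24. Without that library, 2 members rose and 8 fell in Camk2a WT, where 17.4% of all genes were called, and the median was -0.11. In the main fits the background was 0.256% higher and 0.103% lower in WT, and 6.42% and 6.65% in KO. Their medians were -0.09 in WT and -0.04 in KO. Ndufab1 rose in Camk2a WT V1 (49.35 to 75.04 CPM in V1, median 62.41, and 41.19 to 50.69 CPM in S1, median 43.68). Its log2 fold change was 0.48 ± 0.068 (edgeR adjusted p = 0.027) and 0.44 without C3, C18 and C19 (adjusted p = 0.318). Sdha rose in Camk2a KO V1 (397.7 to 465.5 CPM in V1, 357.1 to 413.2 CPM in S1), with 0.16 ± 0.046 (adjusted p = 0.0327). With the animal as a replicate block, 3 members rose and 1 fell in Camk2a KO, where 20.9% of all genes were called, and the median was 0.02 with 55 of 82 positive.

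A model with class, area and animal, added after the data were seen, tested whether the area effect differed between the classes. In WT, 5 of 83 members had a lower value in PV than in Camk2a, with 1.5% of all genes called in either direction. They were Ndufab1 (-0.85 ± 0.13, adjusted p = 0.0161), Cox5a (-0.70 ± 0.13), Cox5b (-0.55 ± 0.10), Uqcrfs1 (-0.42 ± 0.096) and Ndufb2 (-0.39 ± 0.090). In KO, 2 of 83 were called, Cox5b (-0.50 ± 0.12, adjusted p = 0.0196) and Sdha (-0.19 ± 0.048, adjusted p = 0.027), with 6.07% of all genes called. Without C3, C18 and C19 none of the 5 was called in WT (adjusted p of 0.121 to 0.137) and their values stayed between -0.80 and -0.41. No gene of the whole table was called in that fit. The members' median was -0.18 in WT and -0.26 in KO.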

How the data were processed

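Estimated counts per gene were deposited by the authors for 69 libraries. These estimated counts were fractional, and 71.1% of values were not whole. They were rounded. The submitters' processing notes name STAR, Salmon, limma and mm10, and their roles and versions are not given in the sources used here. Per the labels, pulled-down RNA was amplified with the Ovation RNA-Seq System and read as pairs of 100 bases.

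Groups came from library names, and the animal number pairs V1 and S1 of a mouse, since both come from 1 animal. The correlation of paired deviations from the group mean had a median of 0.47 in PV WT, 0.18 in PV KO, 0.54 in Camk2a WT and 0.55 in Camk2a KO. Genes passed filterByExpr (minimum count 10). TMM scaling, a term for labelled sex and edgeR 4.0.16 (glmQLFit, robust, glmQLFTest) in R 4.3.3 followed, with Benjamini-Hochberg adjustment over all genes. Each comparison used only its own groups, and the genotype by class interaction used the summed counts of all animals. Alternatives used DESeq2 1.42.0, RLE scaling, other filters and covariates, and left-out libraries. CPM levels of single libraries use TMM sizes over all libraries. CPM levels with areas summed, and the CPM within the glial score, use plain count totals without TMM scaling.

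Named genes were core subunits, isoform families, and per WT class comparison and complex up to 3 called genes in each direction with a mean of at least 5 CPM. In genotype and area comparisons they were up to 10 called genes with the smallest p, or where none was called those with the smallest p in each direction. The members, lists and doubted libraries were chosen with earlier results of these data known. In 3 animals (6 libraries) the sex read from Xist and Y-linked counts did not match the label. Replicate libraries differed beyond sampling noise. Depth was 27.64 to 49.11 M counts. The labels describe separate mice, so p-values of the class and genotype comparisons measure the spread between animals. The main area comparisons had no term for the animal and treated the V1 and S1 libraries of a mouse as independent. A fit with the animal as a block was the alternative there. GENCODE M21 (GRCm38) gave principal transcripts.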

Additional observations from a re-analysis of the deposited data

Results flagged for a closer look

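In 22 of 176 combinations of a group and a measure, 1 library lay apart from the others of its group. The rule was the gap to its nearest neighbour, which flags about 1 in 20 by chance in independent measures. The measures here share libraries and genes, so the 22 cannot be set against that rate. Animal P25 gave the highest PV KO S1 values of complex V (8163 CPM, next 7201), Ndufs1 (374.1, next 286.0), Ndufv1 (365.4, next 276.6), Uqcrc1 (636.5, next 502.7), Atp5a1 (2212, next 1715) and Atp5b (3017, next 2527). Animal P3 gave the highest Ndufs1 in PV WT S1 (356.8 CPM, next 304.5), and P9 the highest Cox8b in PV KO V1 (1.29 CPM, next 0.8804).

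In Camk2a KO V1, animal C6 was highest for all 86 genes (11880 CPM, next 9993), complex I (3545, next 2923), complex III (1090, next 900), Uqcrfs1 (106.4, next 82.15) and Cox8b (0.0256, next 0). Animal C3 was highest for Cox6a2 in Camk2a KO V1 (4.513 CPM, next 0.7086) and S1 (10.58, next 0.9109), and in S1 for Uqcrc1 (281.1, next 249.1) and Cox8b (0.1392, next 0.04968). Animal C4 was lowest in Camk2a KO S1 for complex IV (915.7 CPM, next 1448), Cox4i1 (193.3, next 283.1) and Cox8a (103.7, next 184.2). Animal C24 was lowest in Camk2a WT for complex II in V1 (539.5 CPM, next 613.5) and Cox6a1 in S1 (150.4, next 188.4).

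The V1 to S1 difference differed between the classes by an edgeR interaction test for 5 genes in WT: Ndufab1 (-0.85), Cox5a (-0.70), Cox5b (-0.55), Uqcrfs1 (-0.42) and Ndufb2 (-0.39). In KO it differed for Cox5b (-0.50) and Sdha (-0.19). Of all genes, 1.5% were called in WT and 6.07% in KO. The 2 of 83 members in KO did not exceed that share. Without C3, C18 and C19 none of the 5 was called in WT, nor was any gene of the whole table.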

How the results depend on the processing

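Of 148 counts of called members under alternatives, 118 stayed within 1.5 times of the reported count, including every class count, and 30 did not. The 118 include counts of 0 that stayed 0, as in every PV genotype comparison. By area the count moved in 4 of 8 alternatives in PV WT, 4 of 8 in PV KO, 6 of 9 in Camk2a WT and 3 of 8 in Camk2a KO. The cause was not tested. Percentages in brackets below are shares of all genes called in the same fit. DESeq2 called 4 members in Camk2a V1 by genotype (5.54%), 7 in the summed Camk2a comparison (10.4%) and 3 in Camk2a WT by area (8.62%). For the area effect between classes it called 8 in WT (5.91%) and 10 in KO (8.59%). No filter gave 0 in Camk2a V1 by genotype. Without the sex term 1 was called in the summed Camk2a comparison (5.2%). By area it was 26 in PV WT (17.2%), 2 in Camk2a WT (2.47%) and 0 in Camk2a KO (12.8%). Without C3, C18 and C19 the counts were 0 in Camk2a V1 by genotype (0.0954%) and 0 in Camk2a WT by area (0%). Between classes they were 0 in WT (0%) and 4 in KO (5.21%). Without P9, P22 and P24 the counts were 72 in PV KO by area (21.6%), and 16 in WT (11.6%) and 24 in KO (10.8%) between classes. Leaving out 1 animal at a time gave 0 to 7 in the summed Camk2a comparison and 0 in PV. In Camk2a it was 7 without C24 (8.06%) and 1 without C14 (6.36%). Without the Batch 2 library, 10 were called in Camk2a WT by area (17.4%), of which 2 were higher and 8 lower in V1. With the animal as a replicate block the area counts were 74 in PV WT (26.6%), 0 in PV KO (0%) and 4 in Camk2a KO (20.9%). Camk2a WT kept a count of 1 (0.0448%). The glial score gave 0 in PV WT, PV KO and Camk2a WT by area (0% each). The PV to excitatory ratio gave 0 in PV WT and PV KO (0% each), 0 in Camk2a KO (12.1%) and 2 in Camk2a WT (1.86%). Isoforms below about 1 CPM rest on few counts, and 6 to 10 libraries a group limit the calls.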
